A study of Mus musculus with 7 samples.

Results

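Cardiac mesenchymal progenitors (CMPs) cultured from the atria of stored mouse hearts differed in many transcripts from the CMPs of the other 3 sources, and those transcripts are described here. CMPs are adherent stromal cells grown out of heart tissue. The 4 cultures came from adult C57BL/6 mice, 1 each from atrium or ventricle, taken either from fresh ("living") tissue or from postmortem tissue kept for 24 h at 4 °C. All 4 were grown on collagen I in DMEM/F12 with 10% serum and 40 ng/ml basic FGF. Each source is 1 array, and nothing in the labels says how many animals or passages lie behind it. For that reason no difference below has a test, and the standard deviation (SD) given is the spread over the other 3 sources and not over replicates. The heart samples of the series, used here only as levels, were 1 commercial total RNA of adult mouse heart and 2 C57BL/6 fetal hearts of embryonic day 16.5, of which 1 was wild type and 1 carried a Myh6-EGFP transgene that marks cardiomyocytes.

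A gene was a member when its value in the postmortem atrial culture lay at least 1 log2 unit above the highest, or below the lowest, of the other 3 CMP arrays. Values are log2 signals relative to the 75th percentile of their own array, so 0 is that percentile. Of 34792 gene names on the array, 19822 could be members because their probe was well above background in the postmortem atrial culture or in all 3 others. The rule found 1210 genes higher (6.1% of those that could be members) and 1119 genes lower (5.65%), 2329 in all (11.7%). These shares are the background for every list below, and since the members were chosen by these same values, the counts describe the arrays and support nothing beyond them. Just inside the threshold lay Ctsh, 1.00 above the highest other array, and just outside it lay Sgcd, also 1.00 above after rounding. On the low side the nearest genes were Cd1d2 inside, at -3.09 against -2.09, -1.38 and -1.59, and Smad7 outside, at 1.80 against 2.89, 2.80 and 2.90.

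Applied to the other arrays in turn, the same rule gave 503 genes for the postmortem ventricular culture (2.49%), 492 for the living atrial culture (2.56%) and 591 for the living ventricular culture (3.06%). The postmortem atrial count was the highest of the 4. This array was picked for description because it stood apart, so its rank follows from that choice and is not a finding. By direction these were 396 higher (1.96%) and 107 lower (0.53%) for the postmortem ventricular, 446 higher (2.32%) and 46 lower (0.239%) for the living atrial, and 426 higher (2.21%) and 165 lower (0.856%) for the living ventricular culture. A higher gene had to be above background only on the array itself and a lower gene on all 3 others, so the directions are not counted on equal terms. Across the 19822 genes, which are not independent replicates, Pearson's r was 0.936 to 0.948 between the postmortem atrial array and each other CMP array. It was 0.985 to 0.987 among the other 3. These genes include those bright on the postmortem atrial array alone, but not those bright on only some of the others. That filter can lower r with the postmortem atrial array, so the values of r are not on equal terms either.

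**Figure D1:**
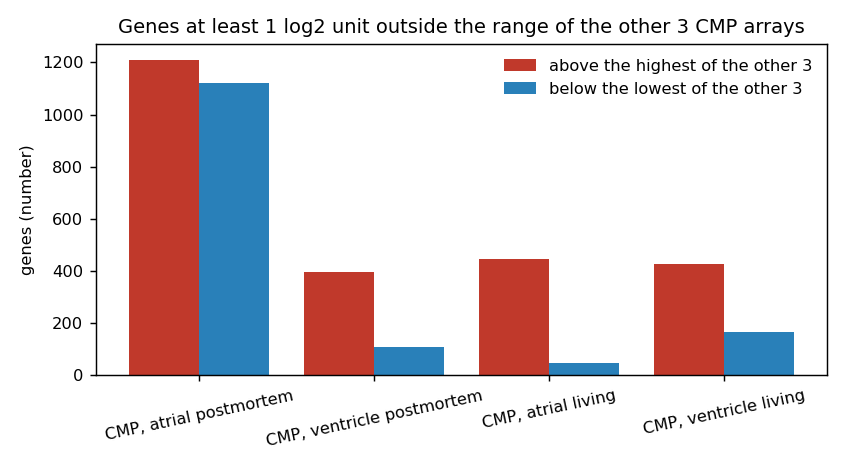
Number of genes (vertical axis) at least 1 log2 unit above the highest (red) or below the lowest (blue) of the other 3 CMP arrays, for each of the 4 CMP arrays. The postmortem atrial array, picked because it stood apart, has 1210 and 1119 genes and each of the others at most 446 above and 165 below.

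All 7 arrays shared 1 slide and 1 scan, no spot was saturated, and 47.5% of probes were well above background against 47.1% to 50.5% on the other CMP arrays. Of 10 spike-in control probes, 9 lay inside the range of the other 3 CMP arrays, and the other was 0.43 log2 units outside. The postmortem atrial array was outside the range of the other 3 in several scanner readings. These were local background (39.9 against 24.0 to 36.0), the log10 detection limit of the spike-ins (1.31 against 0.871 to 1.00) and the median coefficient of variation of repeated probes (4.43% against 3.91% to 3.97%). The spike-in slope (1.04 against 1.01 to 1.03) and the r2 of the spike-in fit (0.993 against 0.988 to 0.991) were outside as well. The part of these readings in the counts was not tested. The median difference over all genes that could be members was 0.05, and 0 of 15 housekeeping genes were members: Gapdh read 9.09 against 9.11 to 9.53, and Actb differed from the mean of the others by -0.06.

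The label was checked against markers. All 10 mesenchymal stromal markers, among them Thy1, Eng, Pdgfra, Vim and Col1a1, were well above background on every CMP array, and their summed linear signal was 1355 times the 75th percentile in the postmortem atrial culture and 974 to 1043 times in the others. Cardiomyocyte genes were at or near background: Myh6, Myl7, Actc1 and Tnni3 were dim on all 4 CMP arrays, and their summed level with Myl2 was 0.21 against 0.12 to 0.16. Leukocyte markers summed to 61.9, inside the 46.9 to 70.2 of the others. Epcam and Cdh1 of epithelium, Wt1 of mesothelium, Plin1 of adipocytes, and Myod1, Pax7 and Myog of skeletal muscle were dim on all 4. Other markers of some of these types were not. A second probe of epithelial Krt5 read -2.26 against -5.14, -5.97 and -5.90. Mesothelial markers, 4 of 5 above background in the postmortem atrial culture, summed to 1.25 against 0.34 to 1.54. Adipocyte markers summed to 8.69 against 4.09 to 5.44. Of 5 genes of the adipocyte list that could be members, 3 were higher and 1 lower. Endothelial markers summed to 9.69 against 11.2 to 17.2, with 5 of 6 above background against 6 of 6 on the others. In the postmortem atrial culture most of this sum came from Kdr, whose probes disagree as given below. Fewer cells of a type and less RNA per cell cannot be told apart in these bulk samples.

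As background, fibroblast-like stromal cells of the heart make matrix, respond to injury with chemokines and acute phase proteins, and keep a memory of their place in the body in the Hox and other homeobox genes they express. Chemokine genes of the CXC and CC families are switched on through NF-kappa B, interferon-stimulated genes through STAT and IRF factors at the interferon-stimulated response element (ISRE), and immediate early genes within minutes of a growth factor or mechanical stimulus. These axes are described in turn, after the genes that stood furthest from the other cultures.

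Of the 12 named genes with the widest distance above the other cultures, Penk, the precursor of the enkephalin opioid peptides, had a log2 signal of 6.44 against -2.06 in the postmortem ventricular, -0.73 in the living atrial and -5.0 in the living ventricular culture, the last of which was dim. Dlk1, an imprinted transmembrane ligand that holds back adipocyte differentiation, read 3.80 against -2.78, -4.63 and -5.58, with only the first of these above background. Its second probe differed in the same direction, by 6.47 log2 units. Both genes were thus strong in 1 culture and weak or dim in the others.

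Esm1, which encodes the secreted proteoglycan endocan, read 7.41 against 1.30, 1.73 and 1.53, a 59.0-fold difference from the mean of 3 cultures that lay close together (SD 0.21). Pamr1, a secreted peptidase-domain protein, read 6.83 against 1.97, 0.37 and 1.14, or 50.7-fold. Lrrn3, a leucine-rich repeat protein of neurons, read 4.18 against -1.55, -1.95 and -3.19, or 84.8-fold. For these 3 genes every one of the 4 arrays was above background, so the fold does not rest on a floor. Inmt, an indolethylamine methyltransferase, was the only other one of the 12 measured on all 4 arrays: it read 3.58 against -2.04, -2.52 and -3.77.

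In the other genes of this group part or all of the comparison was dim. Bend5, a BEN-domain gene, read 2.26 while the other 3 arrays were not above background, a difference of at least 86.7-fold against the lowest measurable signal. Its second probe differed by 7.40 log2 units in the same direction. Akr1c18, which inactivates progesterone, was at least 39.2-fold higher, and Arhgap36, a gene of the Hedgehog pathway, at least 33.4-fold. Galntl2, a glycosyltransferase of mucin-type O-glycans, read 3.39 against -2.66, -2.80 and a dim -6.02, and its second probe differed by 4.89. Kcnn4, a calcium-activated potassium channel, read 2.09 against -3.59 and 2 dim arrays. Clic5, a chloride intracellular channel, read 1.35 against -3.82, -3.72 and a dim -4.21.

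The 12 named genes furthest below the others included 6 of the chemokine, cytokine and acute phase genes (Cxcl5, Saa3, Cxcl1, Il6, Ccl7 and Ptx3). Cxcl5, a neutrophil chemokine, read -1.91 against 6.65, 8.33 and 8.67, an 888-fold lower signal than the mean of the others (SD 1.08). Saa3, an acute phase apolipoprotein, was dim in the postmortem atrial culture at -5.23 and read 3.48, 6.60 and 6.61 in the others, at least 1006-fold higher there. Cxcl1, another neutrophil chemokine, read -0.11 against 4.29, 5.69 and 6.35, or 46.9-fold lower. Il6, the cytokine that drives acute phase genes, read -0.29 against 3.55, 5.07 and 5.95. In all 4 of these genes the postmortem ventricular culture was the lowest of the other 3, although far above the atrial one.

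Ccl7, a monocyte chemokine, read 1.26 against 5.65, 6.34 and 6.94. Ptx3, a soluble pattern recognition receptor, read 0.79 against 4.83, 5.28 and 5.99. Has2, the hyaluronan synthase of embryonic heart cushions, read -2.90 against 1.36, 1.38 and 2.30. The adjacent antisense gene Has2as was also a member, at least 4.92-fold lower. Mfsd2a, a lysophospholipid transporter, read -2.27 against 2.00, 2.67 and 2.68. Slc1a3, a glutamate transporter, was dim in the postmortem atrial culture and at least 29.9-fold higher in the others.

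The 3 remaining genes carried a limit. Fam40b was dim in the postmortem atrial culture and at least 52.8-fold higher in the others, but its second probe was not bright enough to be a member. Wfdc12, a protease inhibitor, was at least 28.3-fold higher in the others. Aoc3, a vascular amine oxidase, read -1.66 against 2.57, 2.28 and 2.96, while its second probe differed by 0.21 in the opposite direction, so the 2 probes disagree.

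**Figure D2:**
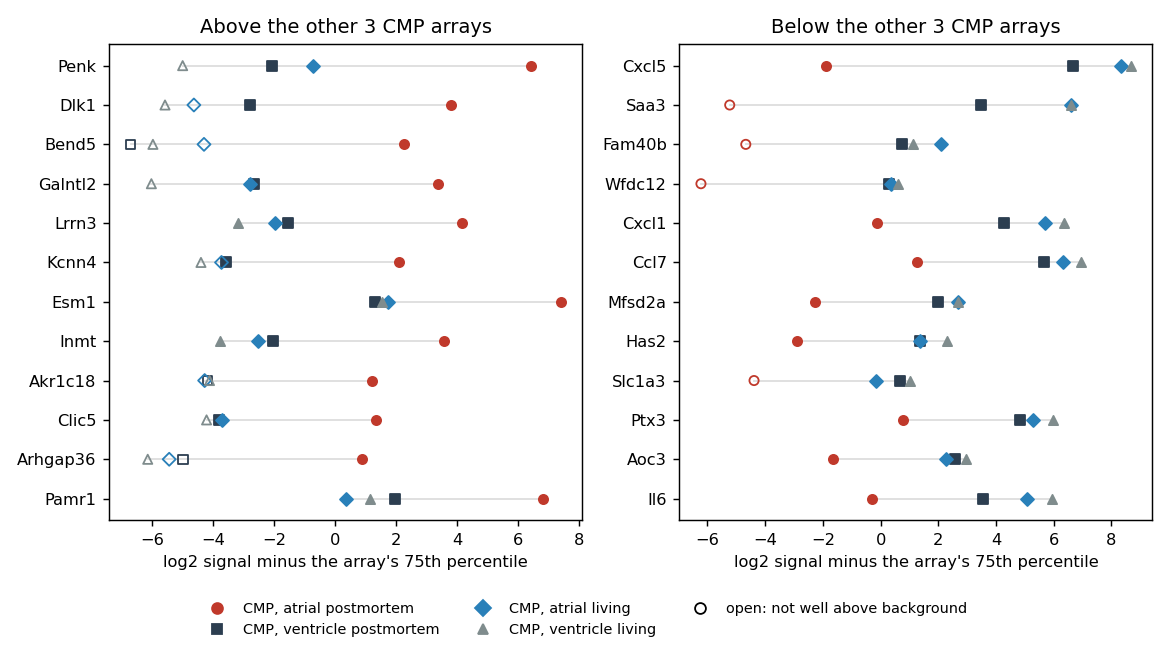
Log2 signal minus the array's 75th percentile (horizontal axis) of the 12 higher and 12 lower named genes on the 4 CMP arrays; open symbols were not well above background. The red points of the postmortem atrial culture lie apart from the other 3 in every row, for example at 7.41 for Esm1 against at most 1.73, and at -1.91 for Cxcl5 against at least 6.65.

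Of 23 listed chemokines that could be members, CC and CXC genes with Cx3cl1 of the CX3C family, 13 were lower and 2 higher. Their median difference was -2.56 log2 units against 0.05 over all genes. Ccl2, the main monocyte attractant, read 3.41 against 7.17, 7.58 and 8.41, a 19.9-fold difference. Ccl8 read -3.42 against 0.83, -0.10 and 2.83, and the interferon-induced Cxcl10 read -2.18 against 1.67, 0.83 and 2.24. Ccl5, a T-cell attractant, read -1.40 against 1.18, 1.19 and 1.12, so the other cultures were within 0.04 (SD) of each other. The 2 higher chemokines of the list were Cxcl13 and the membrane-bound Cx3cl1. Cxcl13, a B-cell attractant, was dim on the other 3 arrays and at least 8.87-fold higher. Cx3cl1 read 5.97 against 4.88, 3.96 and 4.62. Outside the list, the CC chemokine Ccl22 was also a higher member and the CXC chemokine Pf4 a lower one.

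Acute phase and antimicrobial genes had 7 of 12 lower and 0 higher, with a median of -2.73. Lcn2, an iron-siderophore binder, read 0.74 against 3.70, 7.08 and 6.21. Hp, haptoglobin, read 1.21 against 3.14, 6.10 and 6.79, and Saa1 read 0.40 against 1.83, 4.46 and 4.57. Here too the postmortem ventricular culture was between the atrial one and the 2 living cultures. Serpina3g lay in a run of 4 neighbouring lower genes on chromosome 12 (Serpina3g, Serpina3h, Serpina3f and Serpina3i), which are near-identical copies whose probes may share transcripts.

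The NF-kappa B factors and feedback genes themselves had 3 of 21 lower and 0 higher, with a median of -0.50. Nfkb1 read 0.11 against 0.70 to 0.89 and Relb 2.24 against 2.20 to 2.93, while Nfkbia, the inhibitor induced by NF-kappa B, read 4.25 against 4.52 to 5.40. None of these 3 was a member. Tlr2, a receptor of bacterial lipoproteins, was one, at -0.09 against 1.74, 3.14 and 2.41. The receptor Il1r1 of interleukin-1 read 2.30 against 4.32, 4.30 and 4.64, also a member.

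Interferon response genes had 13 of 28 lower and 0 higher, with a median of -1.34, and 26 of the 28 lay below all 3 other cultures by some distance. Oas1a, a sensor of double-stranded RNA, read 1.16 against 4.65, 3.01 and 4.03. Isg15, a ubiquitin-like modifier, read 5.84 against 7.91, 7.16 and 7.57, and Stat2 of the interferon-activated factor ISGF3 read 2.73 against 4.45, 4.15 and 4.26. None of the 28 reached 2 log2 units below the lowest other array, a distance that 12 of the chemokines reached. MHC class I antigen presentation followed with 5 of 18 lower and a median of -0.74: H2-K1 read 3.93 against 5.35, 5.58 and 5.63 (its second probe was no member, at 4.22 against 4.63 to 4.76), and the immunoproteasome subunit Psmb8 read 0.73 against 2.49, 2.51 and 2.45.

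Promoter windows of 250 bases before the start of each gene, from RefSeq on GRCm38.p6, were searched on both strands for the letters GGGA, any base, TTTCC, a pattern bound by NF-kappa B, and for GAAA, any 2 bases, GAAA, the core of the ISRE. The first was present in 0.356% of 32851 windows and the second in 2.98%. Of the 10 member chemokines with a window, Cxcl1, Cxcl2 and Cxcl3 held the first, and 0 of the other 9 genes of that list did. The second was in 3 of the same 10 chemokines (Ccl19, Cxcl10 and Cxcl14). Of 5 member acute phase genes with a window, 0 held the first and 1, Saa3, the second. Of the 9 interferon members with a window, 7 held the second (Gbp2, Gbp3, Ifit1, Isg15, Oas1a, Rsad2 and Stat2), against 3 of 12 other genes of that list, and 0 of the 9 held the first. The letters are a description of these windows and not evidence of binding, and the lists are themselves made of genes with known regulation. The windows of 3 chemokines and 3 interferon genes are shown because these genes are among the lower members that hold the letters, with each match in capitals: Cxcl1 at chr5:90890995-90891244 (plus strand), Cxcl2 at chr5:90903649-90903898 (plus strand), Cxcl3 at chr5:90785851-90786100 (plus strand), Isg15 at chr4:156200819-156201068 (minus strand), Ifit1 at chr19:34640639-34640888 (plus strand) and Rsad2 at chr12:26456453-26456702 (minus strand).
Cxcl1: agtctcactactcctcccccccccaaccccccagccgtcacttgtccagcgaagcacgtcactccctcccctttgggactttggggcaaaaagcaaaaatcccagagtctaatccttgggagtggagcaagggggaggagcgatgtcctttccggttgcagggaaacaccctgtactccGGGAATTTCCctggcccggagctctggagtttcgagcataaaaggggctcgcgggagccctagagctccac
Cxcl2: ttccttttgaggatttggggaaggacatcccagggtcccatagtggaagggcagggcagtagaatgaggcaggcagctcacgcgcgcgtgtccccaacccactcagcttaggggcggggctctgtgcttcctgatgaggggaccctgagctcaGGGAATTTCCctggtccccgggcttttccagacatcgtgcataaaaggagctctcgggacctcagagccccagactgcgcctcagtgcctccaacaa
Cxcl3: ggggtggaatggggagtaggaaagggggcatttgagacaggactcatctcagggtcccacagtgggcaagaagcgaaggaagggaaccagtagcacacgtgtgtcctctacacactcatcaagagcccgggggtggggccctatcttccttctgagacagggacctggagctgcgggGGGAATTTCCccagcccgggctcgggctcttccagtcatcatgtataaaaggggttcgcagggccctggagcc
Isg15: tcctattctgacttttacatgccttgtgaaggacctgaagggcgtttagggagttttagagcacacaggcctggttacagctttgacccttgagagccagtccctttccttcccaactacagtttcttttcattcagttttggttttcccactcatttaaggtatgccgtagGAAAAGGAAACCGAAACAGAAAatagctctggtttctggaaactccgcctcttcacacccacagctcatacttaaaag
Ifit1: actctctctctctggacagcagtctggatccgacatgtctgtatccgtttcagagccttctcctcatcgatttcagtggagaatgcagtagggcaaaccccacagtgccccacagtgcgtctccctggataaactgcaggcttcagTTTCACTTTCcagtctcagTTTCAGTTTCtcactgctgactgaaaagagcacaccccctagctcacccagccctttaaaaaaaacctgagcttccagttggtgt
Rsad2: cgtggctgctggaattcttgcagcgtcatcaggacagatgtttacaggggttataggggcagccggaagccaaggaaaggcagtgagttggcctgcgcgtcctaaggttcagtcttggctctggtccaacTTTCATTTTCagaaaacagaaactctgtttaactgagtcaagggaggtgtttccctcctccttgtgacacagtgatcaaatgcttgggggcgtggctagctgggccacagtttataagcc

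Cxcl2 and Cxcl3 carry the same match of letters as Cxcl1, and both were dim in the postmortem atrial culture at -6.13 and -6.10. In the others Cxcl2 read -3.20, -1.17 and -1.34, at least 5.68-fold higher, and Cxcl3 read -2.70, -2.33 and -0.53, at least 5.88-fold higher. Isg15 holds 3 overlapping matches and Ifit1, which read 1.71 against 3.57, 3.04 and 3.20, holds 2. Rsad2, the antiviral enzyme viperin, holds 1 and read -2.32 against 0.48, -0.53 and -0.07.

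Immediate early genes ran in the other direction, with 11 of 24 higher, 0 lower and a median of 1.37. Fos, a subunit of the AP-1 factor, read 4.98 against 0.24, 1.43 and 1.45, or 15.4-fold higher. Fosb read 2.43 against -2.01, -0.60 and -0.10, and Egr1, a zinc finger factor of the same early wave, read 5.65 against 3.06, 4.07 and 4.01. Jun, the partner of Fos, read 5.07 against 3.46, 3.81 and 4.50, above all 3 but short of the rule. Genes that end the early response were among the members as well: Zfp36, which destabilises messenger RNAs of cytokines, read 1.48 against -1.70, -0.99 and -1.05, and the phosphatase Dusp1 read 3.83 against 2.25, 1.23 and 1.64. Cell cycle genes had 0 of 28 members, with 25 above the mean of the others and a median of 0.40. The proliferation marker Mki67 read 3.76, inside the 2.83 to 4.08 of the others. No p53 target or CDK inhibitor was a member among 22.

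**Figure D3:**
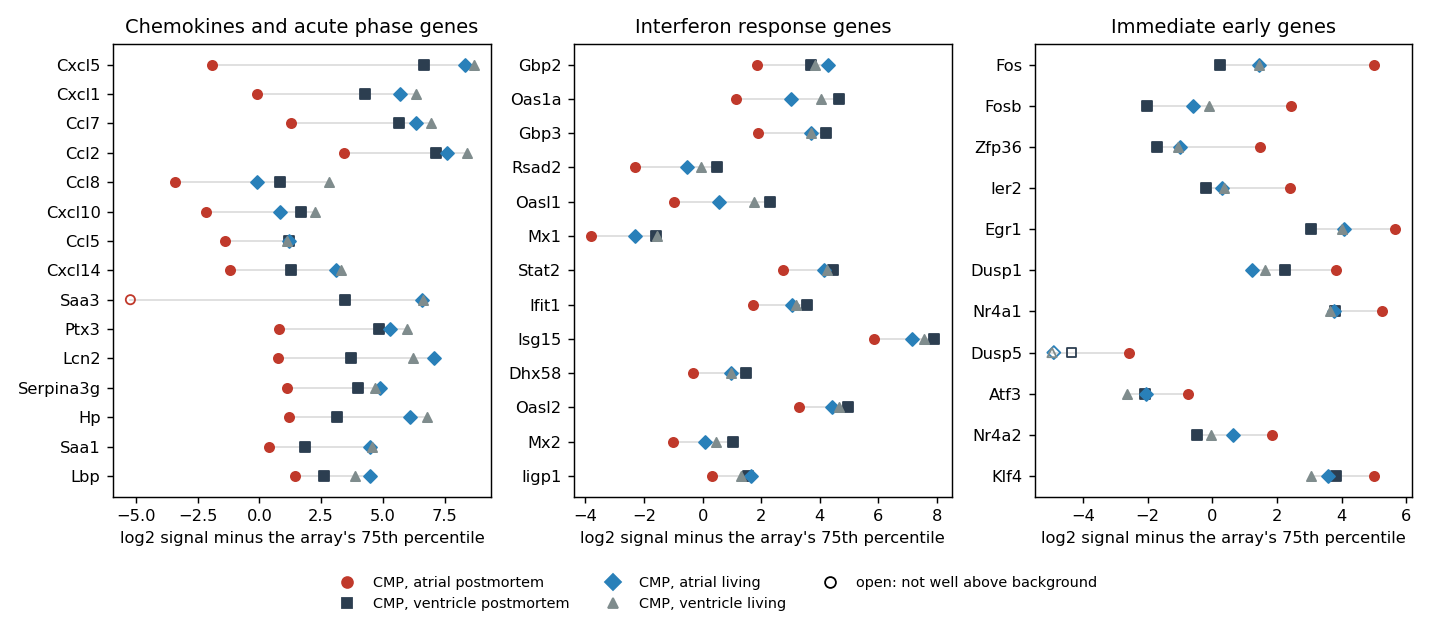
Log2 signal minus the array's 75th percentile (horizontal axis) of lower chemokine and acute phase genes, lower interferon genes and higher immediate early genes on the 4 CMP arrays; open symbols were not well above background. The postmortem atrial culture (red) is leftmost in the first 2 panels, for example 3.41 for Ccl2 against at least 7.17, and rightmost in the third, for example 4.98 for Fos against at most 1.45.

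Hox genes, which mark position along the body axis, had 8 of 12 higher and 1 lower, with a median of 2.82. Of the 8, 3 were above background on all 4 CMP arrays (Hoxa7, Hoxb2 and Hoxb4). The others could be members only through their signal on the postmortem atrial array, where they were high. The count of 8 of 12 and the median therefore rest in part on the filter. With signal required on all 4 CMP arrays, 3 listed Hox genes could be members, and these 3 were higher. Hoxd9 read -6.22 against -4.84, -1.84 and -3.96 but could not be a member. In the HoxA cluster on chromosome 6 the genes Hoxa2, Hoxa3, Hoxa4, Hoxa5 and Hoxa7 were all higher, and Hoxa9, which could be a member but was not, read -3.82, between -3.13 and -4.48 of the others. Hoxa3 read 2.94 against -5.23, -1.13 and -6.16, where the 2 ventricular arrays were dim. Hoxa2 read 1.17 against -6.67, -3.60 and -6.13, and Hoxa5 -0.20 against -6.59, -3.55 and -6.29. In Hoxa2, Hoxa3, Hoxa5 and Hoxa7 the living atrial culture was the next highest, and the 2 ventricular cultures lay below it. Hoxa4 was dim in all 3 others, which therefore have no order, and at least 8.66-fold higher.

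In the HoxB cluster on chromosome 11, Hoxb2 read 1.97 against -1.33, -0.35 and -0.75 and Hoxb4 read 2.87 against -0.49, 0.67 and -0.02. Hoxb5 was above background in the postmortem atrial culture alone, at least 1.42-fold above the others, and Hoxb6 lay inside the range of the other cultures. Hoxb3 also lay inside it by the probe used, but its second probe read 0.21 against -4.17, -2.36 and -3.05, so the 2 probes disagree. No HoxC gene could be a member. Hoxd8 on chromosome 2 was the exception in direction: it was dim in the postmortem atrial culture and at least 8.20-fold higher in the others. Fetal hearts, which the rule did not use, read 2.71 (wild type) and -0.31 (transgenic) for Hoxb4 and 2.13 and -0.57 for Hoxb2, while adult heart read -0.48 and -2.59, so the 2 fetal samples did not read alike.

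**Figure D4:**
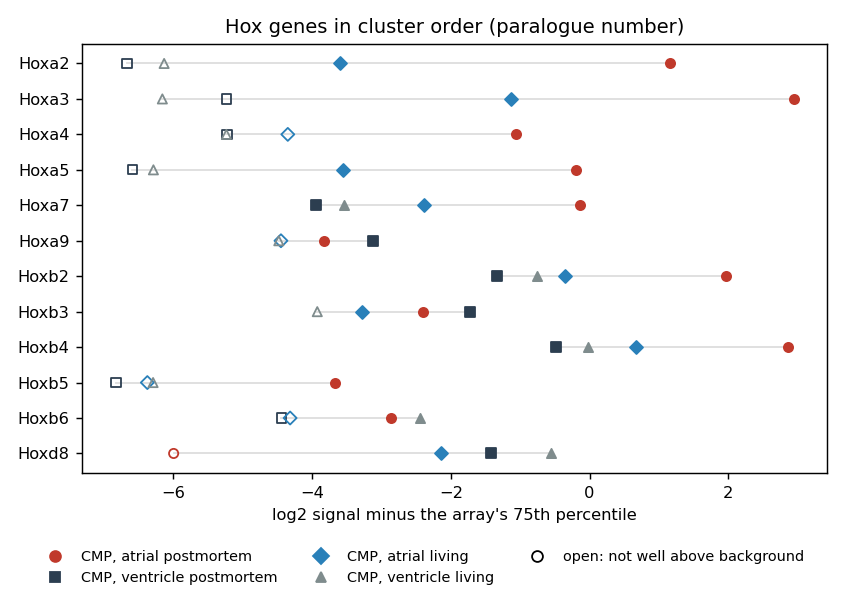
Log2 signal minus the array's 75th percentile (horizontal axis) of 12 Hox genes that could be members, ordered by cluster and number, on the 4 CMP arrays; open symbols were not well above background. Hoxa2 to Hoxa7, Hoxb2, Hoxb4 and Hoxb5 have the postmortem atrial culture (red) on the right, at 2.94 for Hoxa3, and Hoxd8 has it on the left, at -6.00.

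Other homeobox patterning factors had 10 of 29 higher and 3 lower. Irx1, of the Iroquois family, read 1.74 against -5.24, -1.22 and -4.49, and Irx2 read -0.37 against -3.91 and 2 dim arrays. Prrx2 of limb and facial mesenchyme read 5.36 against 2.85, 3.00 and 2.37. Lower were Meox2, a mesoderm homeobox gene that was dim in the postmortem atrial culture and at least 20.9-fold higher in the others, and Eya2, a homeobox cofactor, at least 12.7-fold higher there. Among cardiac transcription factors, with 3 higher and 2 lower of 13, Tbx20 read 2.11 against 5.39, 4.95 and 4.88, and Gata4 1.32 against 3.68, 3.65 and 3.33. Hand1 was dim in the other 3 and at least 6.36-fold higher in the postmortem atrial culture. Its second probe, not bright enough to be a member, read -6.13 against -5.71, -5.77 and -6.28. Isl1 and Mef2c were higher too, by 2.70 and 1.52 log2 units over the mean of the others. The fibroblast and mesenchyme list had 0 higher and 2 lower of 13. One of its lower genes, Tcf21, a marker of epicardium-derived fibroblasts, read 0.81 against 3.64, 3.84 and 3.62.

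Secreted regulators of growth factor pathways differed one by one. Of 27 Wnt pathway genes, 8 were higher and 2 lower: the antagonists Dkk2 (3.43 against -1.12, -2.55 and -2.09) and Wif1 (1.96 against -2.32, -1.48 and a dim -4.26) and the agonist Rspo2 (2.09 against -2.20, -2.62 and a dim -5.05) were high. The antagonist Sfrp1, at 3.25 against 5.51, 6.70 and 6.69, and the receptor Fzd4, at 1.46 against 3.86, 4.19 and 4.54, were low. The antagonists Dkk1 and Sfrp4 were also higher, by 6.5 and 2.07 log2 units over the mean of the others. Most antagonists among the members were thus higher, and Sfrp1 was lower. Of 21 BMP pathway genes, 3 were higher and 5 lower. Grem1, a BMP antagonist, read 4.24 against -3.29, -0.46 and -1.59, and the ligand Bmp4 read 6.20 against 4.64, 4.85 and 3.13, while the ligand Bmp6 was low at 0.06 against 3.04, 1.69 and 2.58. Fgf1, a growth factor released without a signal peptide, read 4.15 against -0.36, -1.36 and -0.54. Of 32 axon guidance genes, 8 were higher and 0 lower: Ntn1, the ligand netrin-1, read 2.72 against -1.92, -1.91 and -1.97, and Sema3c read 3.44 against 0.71, 0.24 and -0.19.

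Notch pathway genes had 6 of 12 lower and 0 higher, with a median of -1.19. Notch4, a receptor of endothelium, read -0.11 against 1.69, 1.51 and 2.34, and the target Heyl read -1.31 against 2.16, 0.66 and -0.08. Listed endothelial genes had 6 of 12 lower and 0 higher, with a median of -2.35. Esm1 (endothelial cell-specific molecule 1) is outside this list and was a higher member, as given above. Egfl7 read 1.38 against 3.81, 4.49 and 3.56, and Cdh5, the cadherin of endothelial junctions, read -1.25 against 1.17, 1.87 and 0.25. Kdr, a VEGF receptor, read 3.15, inside the 2.71 to 3.44 of the others, but its second probe read -4.75 against -1.25, 0.06 and -2.07, so the 2 probes disagree. The part of endothelial cells in the Notch values was not tested.

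In matrix genes both directions occurred. Collagen chains had 5 of 31 higher and 3 lower. The basement membrane chain Col4a4 read 1.30 against -1.98, -2.50 and -3.06, and its partner Col4a3 was dim in the other 3 and at least 14.9-fold higher in the postmortem atrial culture. Col12a1, which bridges collagen fibrils, read -0.54 against 2.20, 1.96 and 1.91. Eln, elastin, read 4.27 against 0.54, 0.33 and -2.21, while Mfap4, a protein of elastic microfibrils, read 1.41 against 4.54, 6.41 and 6.62. Matricellular genes had 6 of 31 lower and 1 higher: Comp, a pentameric cartilage protein, read 0.56 against 3.77, 6.20 and 4.03, and Wisp2, a CCN family protein, read 5.37 against 7.43, 7.69 and 7.47. Integrins and laminins had 4 higher and 5 lower of 31, with Itga10 at 1.61 against -1.83, -1.80 and -2.11.

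Surface and mural markers moved singly. Ly6a, the Sca-1 antigen by which such progenitors are often sorted, read 7.72 against 5.47, 5.83 and 5.19, and Thy1 read 8.83 against 7.69, 7.66 and 7.61. Nt5e, CD73, read -2.60 against -1.21, -0.31 and 1.61. Cspg4, the NG2 proteoglycan of pericytes, read 2.95 against 0.05, -0.61 and -1.67, and Rgs5, another pericyte gene, read 3.25 against -2.60, 1.59 and a dim -5.54. Of 8 pericyte and smooth muscle genes that could be members, these 2 were higher and 1, Cnn1, was lower. Cnn1 differed from the mean of the others by -1.19. The sum of all 5 pericyte and smooth muscle markers, which include the contractile genes Acta2 and Myh11, was nevertheless the lowest of the 4, at 98.6 against 122 to 186. Among metabolic lists, cholesterol synthesis and uptake had 4 of 20 lower and 0 higher (median -0.73), with Hmgcs1 at 3.61 against 4.73, 4.74 and 4.84. Hypoxia response genes had 5 of 23 lower and 2 higher, with the glycolytic enzyme Hk2 at -1.15 against 1.21, 1.62 and 2.40, and with Ndrg1 in the other direction at 5.18 against 2.07, 3.57 and 2.02.

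**Figure D5:**
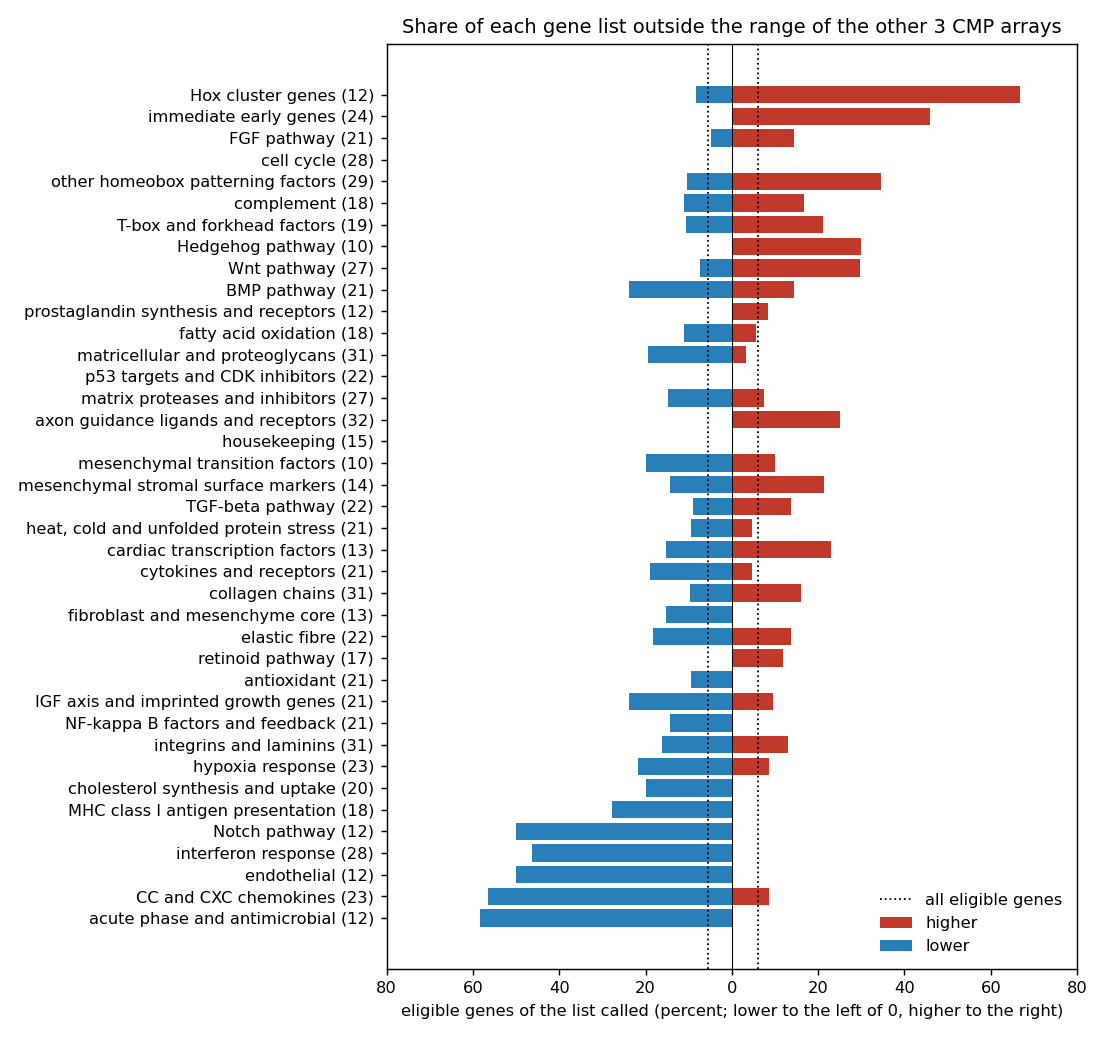
Share of the genes of each list that were higher (right of 0, red) or lower (left of 0, blue) in the postmortem atrial culture, in percent of the genes that could be members (their number in parentheses), ordered by the median difference; dotted lines mark the shares over all genes, 6.1% higher and 5.65% lower. Hox and immediate early genes lie at the top with 8 of 12 and 11 of 24 higher, and acute phase genes and chemokines at the bottom with 7 of 12 and 13 of 23 lower.

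How large and how bright the members were differed between directions. The median distance beyond the other arrays was 2.01 log2 units for higher and 1.60 for lower members, and 262 higher and 105 lower members lay at least 3 units away. For 585 of the 1210 higher members all 3 other arrays were dim, and for 456 all 3 were above background. Of the 1119 lower members, 405 were dim in the postmortem atrial culture and 714 were not. With dim values raised to the lowest measurable signal of their array, 923 higher and 1015 lower members were left. Normexp background correction with an offset of 50, which compresses dim signals, gave 493 higher and 466 lower genes, with 8 lower chemokines, 2 lower endothelial, 1 lower Notch, 3 lower BMP, 3 lower MHC class I and 3 lower hypoxia genes, and 5 higher homeobox genes besides Hox. Of the genes named in the text and run this way, Nt5e, Hoxb5, Hoxd8, Meox2, Dlx6, Cxcl2, Cxcl3, Ccl11 and Heyl were then no longer members. With the mean of all probes H2-K1, Hmgcs1 and Bmp4 were not, and with dim values raised Hoxb5 and Ccl11 were not. Among genes above background on all 4 CMP arrays, 4 Wnt pathway genes, 2 collagen chains and 3 homeobox genes besides Hox were higher. By kind, 743 higher and 657 lower members were named genes, and 160 and 139 were intergenic regions.

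Readings that the rule did not use were set beside the members. Where a higher member had other probes bright enough to be judged (209 probes of 166 genes), 65.6% also met the rule in the same direction, 93.3% had the same sign and 2 probes met it in the opposite direction. For lower members (355 probes of 246 genes) the figures were 69.9%, 91.5% and 8 probes. These probes share the RNA and the labelling of the first, so they bear on the probe and not on the culture.

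On the heart arrays, 40.7% of higher members were above background in all 3 heart samples, against 69.8% of lower members and 84.3% of all genes that could be members. The shares dim in all 3 hearts were 35.0%, 7.69% and 4.73%. A higher member needed signal only on the postmortem atrial array and a lower member on all 3 others, so the filter alone can set these shares apart and nothing is read from them. Clic5 read 4.93 in adult heart, 1.06 in wild type and 2.12 in transgenic fetal heart. Dlk1 was high in both fetal hearts (7.64 and 6.02) and dim in adult heart, whereas Cxcl5 and Il6 were dim in all 3.

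Members lay across the genome. Over the autosomes and the X chromosome the median difference was between -0.01 and 0.11, and chromosome 6, which carries HoxA, had the highest share of higher members at 9.43%, followed by chromosome 14 at 8.51%. Neighbours were counted as well: of 390 higher named members with another named gene within 50 kb, 15.4% had a higher neighbour and 3.85% a lower one, and of 374 lower members 23.5% had a lower neighbour and 4.01% a higher one. Over all 8358 such genes the shares were 5.98% and 5.86%. The runs on the low side included Ccl2, Ccl7 and Ccl11, then Cxcl5, Pf4 and Cxcl3, and Gbp5, Gbp7 and Gbp3. Those on the high side included the HoxA genes and the pairs Dlx5 with Dlx6 and Dlx1 with Dlx2, of limb and craniofacial patterning. Several runs are tandem families whose probes may cross-hybridise, and the part of that was not tested.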

How the data were processed

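RNA of the 7 samples (250 ng each) was measured in 1 colour, Cy3, on Agilent mouse arrays. Each deposited scanner file gives the intensity per spot, background-subtracted by Agilent Feature Extraction 10.7.3.1 per the file headers (9.5.3 per the submitters' processing notes), with flags for spots well above background, saturated or outlying. Probe positions are on mm9, per the file headers. The deposited series table holds log2 values, which equal log2 of the processed signal minus 1 constant per array for 100% of probes with a single spot, within 0.001.

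From these files, 11 probes with only outlying spots were left out and 55670 kept. The value is log2 of the processed signal minus its 75th percentile on the array. The probe of highest mean over the 7 arrays stood for a gene. Probes not well above background are called dim; "at least" folds set the brighter side against the lowest signal well above background, or the dim value where higher. Python 3.11.15, pandas 2.3.3, R 4.3.3 and limma 3.58.1 (normexp and quantile alternatives) were used. The rule was tested on simulated data of bright genes with planted shifts well beyond the threshold. That test does not cover dim genes or genes near the threshold. Named genes are the 12 higher and 12 lower members furthest from the other arrays, dim values raised, then up to 4 such members of each list described, plus markers; further genes, such as Cxcl10, Cxcl13, Hp, Saa1, Egr1, Jun, Stat2, Isg15, Nfkb1, Bmp4, Sfrp1, Meox2, Mki67, Kdr, Gapdh and Has2as, were picked after their values were seen. The array described, the members and the 50 gene lists were chosen with earlier results of these data known. Some items of the lists are not reported here. With 1 array per source, no p-value was computed, and the number of arrays limits the precision.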

Additional observations from a re-analysis of the deposited data

How the results depend on the processing

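No paired analysis was possible because each source has 1 array and the labels carry no replicate number. Main counts are 1210 higher and 1119 lower. Normexp background (offset 50), which draws dim signals together, gave 493 and 466, of which 492 and 465 were among the main members, and 89, 116 and 184 for the postmortem ventricular, living atrial and living ventricular arrays under the same rule. Genes above background on all 4 CMP arrays gave 456 and 714 (121, 112 and 179 for those arrays), and a distance of 2 log2 units gave 608 and 376 (241, 243 and 248). Without a filter on dim probes those arrays gave 782, 809 and 1058, and the main counts were 1539 and 1438. With dim values raised they gave 298, 319 and 428. Quantile normalization, median scaling, the deposited table and the mean of all probes kept the counts within 1.5 times, at 1054 to 1216 higher and 1027 to 1123 lower. Leaving out 1 other array gave 1313 to 1487 higher and 1264 to 1454 lower. There the range to exceed is narrower, and a lower gene needs signal only on the other arrays that are left.

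Of 47 list medians, 13 changed sign in at least 1 alternative, 24 values in all. With only genes above background on all 4 arrays, bone and cartilage became -0.38 and BMP pathway -0.21, and without the postmortem ventricular array prostaglandin synthesis and receptors became -0.041 (0.27 at most when another array was left out). Of the 24 genes named first and the list members, 251 were run under the alternatives and 0 changed sign; genes described outside these, such as Has2as, were not run. Under normexp, lower chemokines numbered 8, lower endothelial genes 2, lower Notch genes 1, lower BMP genes 3, lower MHC class I genes 3, lower hypoxia genes 3 and higher homeobox genes other than Hox 5. The mean of probes left 2 lower MHC class I genes, and without the living atrial array 8 integrins and laminins were lower. Counting each of these genes under each alternative, 2581 differences moved by less than the SD of the other 3 arrays and 180 by more. Of the 251, the call was lost by 65 under normexp, 71 with signal required on all 4 arrays, 22 with the mean of probes, 14 with dim values raised and 5 with quantile normalization. Signals near background limit the dim members, and the number of arrays limits everything else.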
